A study of Homo sapiens with 12 samples.

Results

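The extracellular matrix genes described here are 71 of the 27348 gene symbols in the RNA table of K562 cells: 44 collagen genes and 27 genes for fibulins, fibrillins, laminins and other matrix glycoproteins, basement membrane proteins and collagen-modifying enzymes. They were taken by symbol, every collagen name plus a fixed list, and that list was chosen by gene names with earlier results for these libraries already known, including RNA changes after PHF19 depletion. Those RNA changes are therefore not evidence about the genes and are not used here. K562 is an established line of chronic myeloid leukemia cells with erythroid features. The cells carried the control vector (shCT) or 1 of 2 short hairpin RNAs (sh1 and sh2) against the long isoform of PHF19. RNA was sequenced from 6 libraries, 2 in each of the 3 groups, and chromatin immunoprecipitation (ChIP-seq) from 6 libraries, 1 per condition. The ChIP-seq results rest on 3 peak lists, PHF19 in shCT, MTF2 in shCT and MTF2 in sh2, so no difference between them has a replicate check. The libraries of PHF19 in sh1 and sh2 and of IgG were not analysed here, and the depletion of PHF19 could not be checked in each library.

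Collagens are triple-helical proteins of the matrix. Fibrillar collagens build fibres, network collagens build sheets such as the basement membrane, FACIT collagens decorate fibres, and multiplexins sit at basement membranes and release endostatin-like fragments. Lysyl hydroxylases and prolyl hydroxylases modify the chains inside the cell, and lysyl oxidases cross-link them outside it. PHF19 and MTF2 are related Polycomb-like proteins that bind the Polycomb repressive complex PRC2, which methylates histone H3 at lysine 27, and recruit it to CpG-rich DNA. Many matrix genes are silent in blood cells, and blood cells make a small set of their own.

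The peak lists set the scale of what follows. They held 5621 peaks for PHF19 in shCT (11.5 Mb in all, median width 1625 bp), 12502 for MTF2 in shCT (29.0 Mb, 1780 bp) and 18287 for MTF2 in sh2 (63.2 Mb, 2598 bp). Each list stopped at a score of 50, the score the peak caller gave to the evidence for a peak. Read depth behind a peak is unknown, since the lists hold no tag counts. A promoter peak below is a peak that overlaps, by 1 bp or more, the 2.5 kb on either side of any annotated transcription start site (TSS) of a gene. A PHF19 promoter peak was present at 8.91% of the 19084 protein-coding genes of the table that could be placed on the genome, an MTF2 promoter peak in shCT at 12.1%, and in sh2 at 16.8%.

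PHF19 had a promoter peak at 12 of the 71 genes (16.9%), beside the 8.91% of all coding genes. MTF2 had one at 24 genes in shCT (33.8%, beside 12.1%) and at 30 in sh2 (42.3%, beside 16.8%). No gene had an MTF2 promoter peak in shCT without one in sh2, where the share over all coding genes was 0.692%. This is counted per gene over all its start sites. Individual shCT promoter peaks at COL16A1, COL2A1 and LAMC1 overlapped no sh2 peak. The 32 genes with a promoter peak in at least 1 list fell into 4 combinations. All 3 lists held a peak at 10 genes, COL15A1, COL16A1, COL19A1, COL1A1, COL2A1, COL9A3, FBLN2, FBLN5, LAMC1 and LOXL2 (14.1%, beside 5.44% of coding genes). The peaks of a gene need not lie at the same start site. Both MTF2 lists and not PHF19 held a peak at 14 genes (19.7%, beside 5.94%), the sh2 list alone at 6 (8.45%, beside 4.79%), and PHF19 alone at COL9A1 and NID1 (2.82%, beside 2.64%). The remaining 39 genes, 54.9% of the 71 beside 79.8% of coding genes, had no promoter peak in any list. The matrix genes were long, with a median of 98633 bp from start to end beside 27702 bp for coding genes, and the part of length and of several start sites in these counts was not tested.

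**Figure D1:**
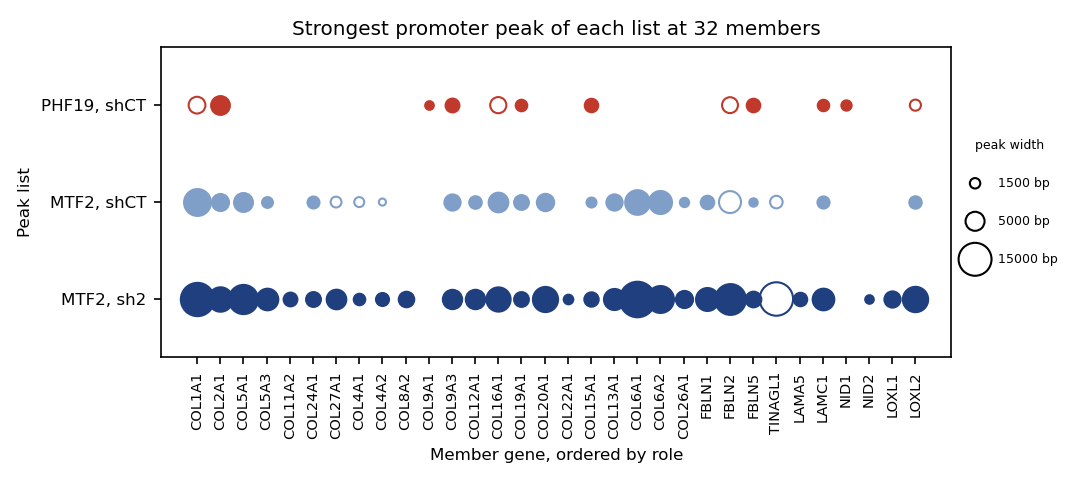
Strongest promoter peak in each of the 3 lists (rows) at the 32 matrix genes with any promoter peak (columns, ordered by role). Circle area is the peak's width, filled circles mark genes with a promoter peak within 2.5 kb of the canonical start site, and open circles genes whose peaks lay at another start site. PHF19 marks 12 genes, MTF2 24 in shCT and 30 in sh2.

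The canonical start site alone gave a smaller PHF19 set. Within 2.5 kb of it lay a PHF19 peak at 8 genes (11.3%, beside 7.28% of coding genes), and the peak spanned the site itself at 4 genes, COL15A1, COL9A3, FBLN5 and COL19A1 (5.63%, beside 5.09%). For MTF2, a peak spanned the site at 15 genes in shCT (21.1%, beside 7.12%) and at 25 in sh2 (35.2%, beside 11.4%). The start sites of COL15A1, FBLN5 and COL19A1 are shown here by the 250 bases before them, from the GRCh37 genome, written 5′ to 3′ along the gene with each CG dinucleotide in capitals, because PHF19 and MTF2 bind CpG-rich DNA. The stretch of COL15A1 (a multiplexin) lies at chr9:101705939-101706188 on the plus strand, FBLN5 (fibulin-5, needed for elastic fibres) at chr14:92414039-92414288 on the minus strand, and COL19A1 (a FACIT collagen) at chr6:70576198-70576447 on the plus strand.
COL15A1: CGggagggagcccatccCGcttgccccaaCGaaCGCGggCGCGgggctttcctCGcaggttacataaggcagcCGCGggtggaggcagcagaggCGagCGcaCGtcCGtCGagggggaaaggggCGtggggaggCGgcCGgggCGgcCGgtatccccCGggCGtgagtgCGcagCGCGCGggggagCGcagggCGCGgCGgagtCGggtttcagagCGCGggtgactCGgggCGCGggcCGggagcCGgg
FBLN5: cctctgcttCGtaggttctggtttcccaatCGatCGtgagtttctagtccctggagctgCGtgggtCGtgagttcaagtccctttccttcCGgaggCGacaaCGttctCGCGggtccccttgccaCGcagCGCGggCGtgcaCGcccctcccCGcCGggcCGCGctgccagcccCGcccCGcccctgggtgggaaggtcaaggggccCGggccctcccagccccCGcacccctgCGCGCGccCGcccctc
COL19A1: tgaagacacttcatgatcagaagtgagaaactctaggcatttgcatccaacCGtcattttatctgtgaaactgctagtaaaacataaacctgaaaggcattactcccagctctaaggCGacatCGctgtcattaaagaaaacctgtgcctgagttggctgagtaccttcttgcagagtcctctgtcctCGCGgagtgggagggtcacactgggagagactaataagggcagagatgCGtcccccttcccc

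The printed stretches held 38 CG dinucleotides in COL15A1, 27 in FBLN5 and 6 in COL19A1. In COL19A1, the PHF19 peak began 77 bp before the start site and ran to 1774 bp after it, so most of the stretch shown lies outside the peak. Over the 300 bases from 250 before to 50 after the start site, the CpG observed to expected ratio, the number of CG dinucleotides divided by what the C and G content gives, was 1.08 in COL15A1, 0.891 in FBLN5 and 0.537 in COL19A1. Coding genes with a PHF19 peak over the start site had a median of 0.857 and all coding genes one of 0.782. The letters CGCG, which read the same on both strands, occurred in those 300 bases in all 4 matrix genes with PHF19 over the start site, in 88.9% of the coding genes with a PHF19 peak over the start site and in 68.2% of all coding promoters of that length.

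COL15A1 carried the PHF19 peak of rank 438 of 5621, 2517 bp wide, from 1245 bp before to 1271 bp after its start site. MTF2 covered the same site with a 1380 bp peak in shCT, of rank 7543 of 12502, and with a 2846 bp peak in sh2, of rank 3282 of 18287. COL15A1 stood apart from the other PHF19-marked matrix genes in its RNA level, described below. COL9A3, a FACIT chain of cartilage type IX collagen, had the strongest PHF19 peak over a start site among these genes (rank 257, 2653 bp), with MTF2 peaks of 3629 bp in shCT (rank 248) and 5146 bp in sh2 (rank 611). At FBLN5, a 2545 bp PHF19 peak (rank 824) covered the site, MTF2 in shCT gave a pair of narrow peaks, of 973 and 1260 bp, that left the site itself uncovered, and MTF2 in sh2 gave a 3402 bp peak across it. COL19A1 had a weaker PHF19 peak (rank 2820, 1852 bp) inside an MTF2 peak of nearly the same width in both lists, 3032 bp in shCT and 3021 bp in sh2.

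**Figure D2:**
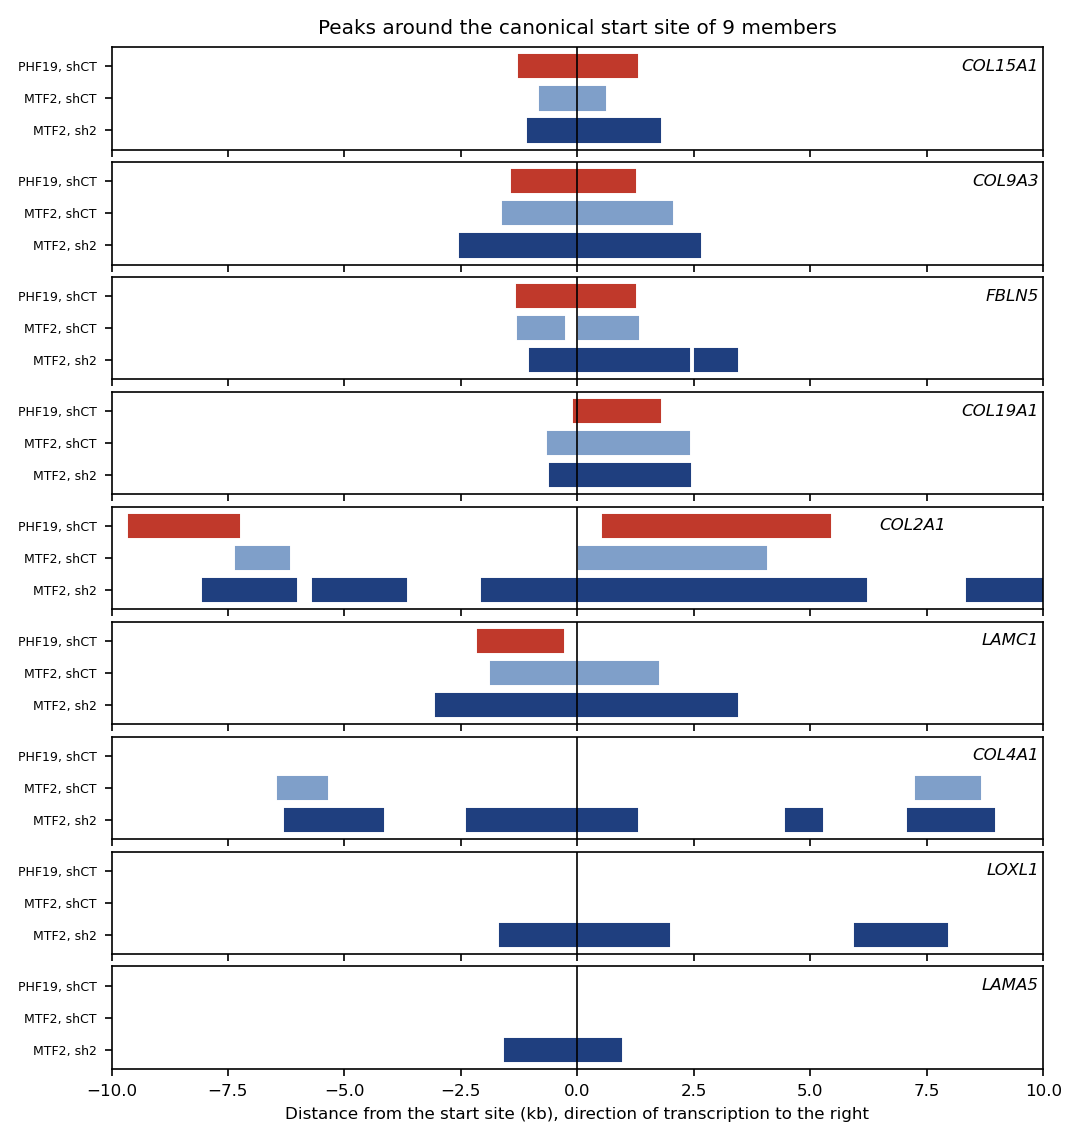
PHF19 peaks in shCT (red), MTF2 peaks in shCT (light blue) and MTF2 peaks in sh2 (dark blue) within 10 kb of the canonical start site (vertical line) of 9 matrix genes, with the distance from the start site in kb on the x axis. The red bar spans the line in COL15A1, COL9A3, FBLN5 and COL19A1, lies beside it in COL2A1 and LAMC1, and is missing near COL4A1, LOXL1 and LAMA5.

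The other PHF19 calls lay beside the start site or far downstream of it. COL2A1, the fibrillar collagen of cartilage, had the strongest of them, a 4883 bp peak of rank 165 that began 546 bp after the start site. The MTF2 peak there began 38 bp after the site in shCT (4018 bp, rank 275) and spanned it in sh2 (8248 bp, rank 313). LAMC1, the laminin gamma-1 chain, had its PHF19 peak wholly upstream, ending 303 bp before the site (rank 1146), with MTF2 across the site in both lists, over 2028 bp in shCT (rank 1386) and 6479 bp in sh2 (rank 420). A further shCT peak of MTF2, 1519 bp wide, lay inside the LAMC1 PHF19 peak, and the sh2 peak covered the stretch of both shCT peaks. COL9A1 (rank 3883) and NID1, the basement membrane linker nidogen-1 (rank 3343), had PHF19 peaks ending 1199 and 2161 bp before the site, and no MTF2 promoter peak in either list.

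Peaks at other annotated start sites made up the rest. In COL16A1, a FACIT collagen, PHF19 peaks lay 19748 to 23359 bp (rank 767) and 27505 to 30295 bp (rank 3726) into the gene. An MTF2 peak of 5347 bp in shCT covered the first of them, and no MTF2 peak in sh2 overlapped either. In COL1A1, the main chain of type I collagen, the PHF19 peak lay 10457 to 14342 bp in (rank 537) under an MTF2 peak of 9984 bp in shCT and 15330 bp in sh2. MTF2 had a separate peak over the COL1A1 start site, of rank 4454 of 12502 in shCT and 13434 of 18287 in sh2. The FBLN2 (fibulin-2) peak lay 88083 to 91573 bp after the start site (rank 1518) and ran 2276 bp past the annotated end of the gene. The LOXL2 (a lysyl oxidase) peak lay 81071 to 82773 bp in (rank 1839). FBLN2 had an MTF2 peak over its canonical start site in sh2, 1475 bp wide and near the end of the list (rank 16930), and none there in shCT.

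Taking the whole gene from 2.5 kb upstream to its end, the window the study used for target genes, added COL26A1 and COL28A1, so that 14 of the 71 genes (19.7%, beside 11.5% of coding genes) held a PHF19 peak. The study kept only PHF19 peaks above a minimum of tags, which the list used here does not give, so all its 5621 peaks entered and these genes may be a wider set than the study's targets. COL26A1, whose values were looked up for its number of peaks, held 3 PHF19 peaks, 18 of MTF2 in shCT and 25 of MTF2 in sh2 in that region.

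By role, PHF19 promoter peaks were at 4 of 10 FACIT collagens, 2 of 11 fibrillar collagens, 1 of 2 multiplexins, 2 of 10 glycoproteins, 2 of 9 basement membrane genes and 1 of 8 enzymes. None was at the 9 network collagens, the 4 transmembrane collagens or the 8 microfibril, anchoring and other collagens. With a share of 8.91% over all coding genes, finding none in sets of 4 to 9 genes is near that share. MTF2 in shCT marked 6 of 11 fibrillar and 5 of 10 FACIT collagens, and 18 of the 44 collagens in all (40.9%), beside 6 of the other 27 genes (22.2%). Of 56 further matrix genes from a list of integrins, proteases, proteoglycans and processing enzymes, 6 had a PHF19 promoter peak, 10 an MTF2 promoter peak in shCT and 18 in sh2 (32.1%). Over all coding genes the shares were 8.91% for PHF19, 12.1% for MTF2 in shCT and 16.8% for MTF2 in sh2. The sets are small, and differences between roles or from coding genes were not tested.

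The MTF2 lists of shCT and sh2 ask where MTF2 was found after PHF19 depletion. The 6 genes with an MTF2 promoter peak in sh2 and none in shCT were COL11A2, COL22A1, COL8A2, LAMA5, LOXL1 and NID2. They were 8.45% of the 71, beside 5.46% of coding genes and 14.3% of the 56 further matrix genes (8 genes). By the canonical start site alone they were 10 (14.1%, beside 5.13%), these 6 with COL27A1, COL4A1, COL4A2 and FBLN2. With peaks at or above each list's median score (86.6 in shCT and 112 in sh2) there were 8 (11.3%, beside 4.34% of coding genes). Only LAMA5 and LOXL1 of these were among the 6. The others of the 8 had MTF2 promoter peaks in shCT too, below that list's median score. A heading inside the sh2 list names a hairpin that no sample label has, and the list was taken as sh2 from its sample's labels. LOXL1, a lysyl oxidase of elastic tissue, had the strongest of these peaks, 3630 bp across its start site (rank 3326 of 18287). LAMA5, a laminin alpha chain, had a 2509 bp peak across the site (rank 7798), and the fibrillar collagen COL11A2 (2624 bp, rank 10844) and the network collagen COL8A2 (3325 bp, rank 11371) each had one across it too. COL22A1 (1274 bp, rank 11914) and NID2 (1015 bp, rank 17722) had narrow peaks beside the site. None of the 6 had a PHF19 promoter peak, and 87.8% of the 1042 coding genes with MTF2 in sh2 alone had none either.

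MTF2 peaks, counting those found in only 1 list, also covered more bases near the start sites in sh2. Within 10 kb of the canonical start site, 31 of the 71 genes had MTF2 peaks in at least 1 list, and the bases under them went from a median of 2233 in shCT to 5605 in sh2. The median difference was 2624 bases, 30 genes had more bases in sh2, and COL19A1 had fewer (3032 and 3021). Of 3698 coding genes with such peaks, 90.2% had more bases in sh2, with a median difference of 1926. The sh2 list was longer and its peaks wider over the genome, and how far depth or enrichment of the libraries carries this was not tested. When the sh2 list was held to its 12502 highest-scoring peaks, which still covered 52 Mb, the median difference was 2624 bases over 29 genes, 26 of them with more in sh2, beside 1684 bases over coding genes.

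**Figure D3:**
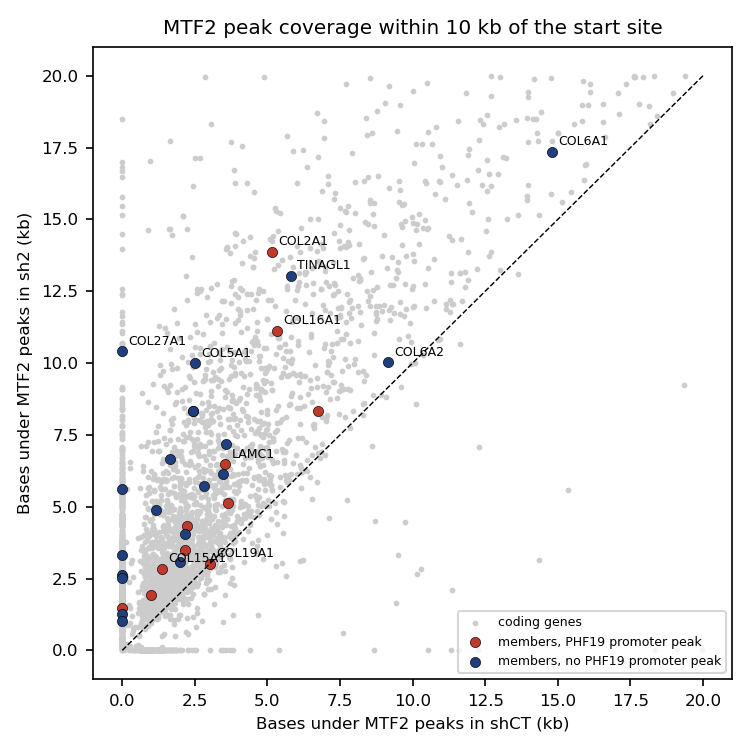
Bases under MTF2 peaks within 10 kb of the canonical start site in shCT (x axis, kb) and sh2 (y axis, kb), for coding genes (grey) and for matrix genes with (red) and without (blue) a PHF19 promoter peak; the dashed line marks equal values. All but 1 of the 31 matrix genes lie above the line, as do 90.2% of the coding genes, and COL19A1 lies just below it.

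Among matrix genes with a PHF19 promoter peak the median difference was 1517 bases (11 genes), and among those without one 3105 (20 genes). Over coding genes the same medians were 2099 and 1879. The genes with the most bases in sh2, named after their values were seen, were COL6A1, a microfibril collagen (14810 in shCT and 17355 in sh2), COL2A1 (5144 and 13876), the glycoprotein TINAGL1 (5800 and 13044), COL16A1 (5339 and 11133) and COL27A1, a fibrillar collagen (0 and 10405). Over the whole gene from 2.5 kb upstream, COL16A1 went the other way, from 16092 bases in shCT to 11956 in sh2. Its PHF19 peaks, further into the gene, overlapped no sh2 peak. Where both lists held a peak near the canonical start site, at 19 matrix genes, the strongest peak ranked higher in sh2 at 11 by its place in the list (57.9%, beside 51.4% of coding genes), and at 15 by its place as a share of the list (78.9%, beside 72.1%). The lists differ in length, so neither count measures a gain in binding. The median width of that peak was 2169 bp in shCT and 4206 bp in sh2, beside 2319 and 3976 bp over coding genes.

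COL4A1 and COL4A2, the major chains of basement membrane type IV collagen, are transcribed away from each other from start sites 127 bp apart on chromosome 13. MTF2 in sh2 had a peak on either side, of 1269 bp over the COL4A1 start (rank 16119) and 2341 bp over the COL4A2 start (rank 6069), and in shCT none within 2.5 kb of these sites. Both genes share these peaks, so they are not separate observations, and each counts as marked in shCT through a peak at another start site inside the gene. The 126 bases between the sites (chr13:110959505-110959630, GRCh37 plus strand, CG in capitals) show the shared promoter, of which 92 bases lie under the sh2 peak over the COL4A2 start.
COL4A1-COL4A2: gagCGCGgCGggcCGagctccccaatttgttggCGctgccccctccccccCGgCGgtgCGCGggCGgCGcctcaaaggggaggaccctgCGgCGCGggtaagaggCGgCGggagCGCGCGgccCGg
This stretch held 20 CG dinucleotides. PHF19 had no peak in either gene. The RNA table listed COL4A1 at 0 and COL4A2 at a mean of 361 normalized counts (18.7 per kb of exon). Whether the counting used strand is not stated in the sources used here.

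RNA levels are the authors' mean normalized count over all 6 libraries, so they have no SD and mix shCT with both hairpins. Divided by exon length, as mean normalized counts per kb, they can be set side by side between genes. The median of the 71 genes was 2.10 per kb, beside 36.9 for coding genes, and 39 genes (54.9%) had a mean of at least 10 normalized counts, beside 66.2% of coding genes. The range ran from 4 genes listed at 0, COL4A1, COL22A1, NID1 and the prolyl hydroxylase P4HA3, to SPARC. A low level in a bulk library can come from fewer expressing cells or from less RNA per cell, which cannot be told apart here.

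SPARC, a collagen-binding glycoprotein also stored in platelets, had the highest level, 2565 per kb. The lysyl hydroxylase PLOD1 followed with 1616, then the multiplexins COL15A1 with 1089 and COL18A1 with 691, and the lysyl hydroxylase PLOD3 with 673. AGRN (agrin) had 306 per kb, the prolyl hydroxylase P4HA2 228, the transmembrane collagen COL23A1 211, HSPG2 (perlecan) 199 and LAMB1 (laminin beta-1) 179. With single means, neighbours in this order cannot be separated by any spread. Of these 10 genes, 9 had no promoter peak in any list, and COL15A1 had one in all 3. Of the 6108 coding genes with a level at or above that of LAMB1, 93.1% had no promoter peak, so the share among these 10 is near that of all genes at such levels.

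**Figure D4:**
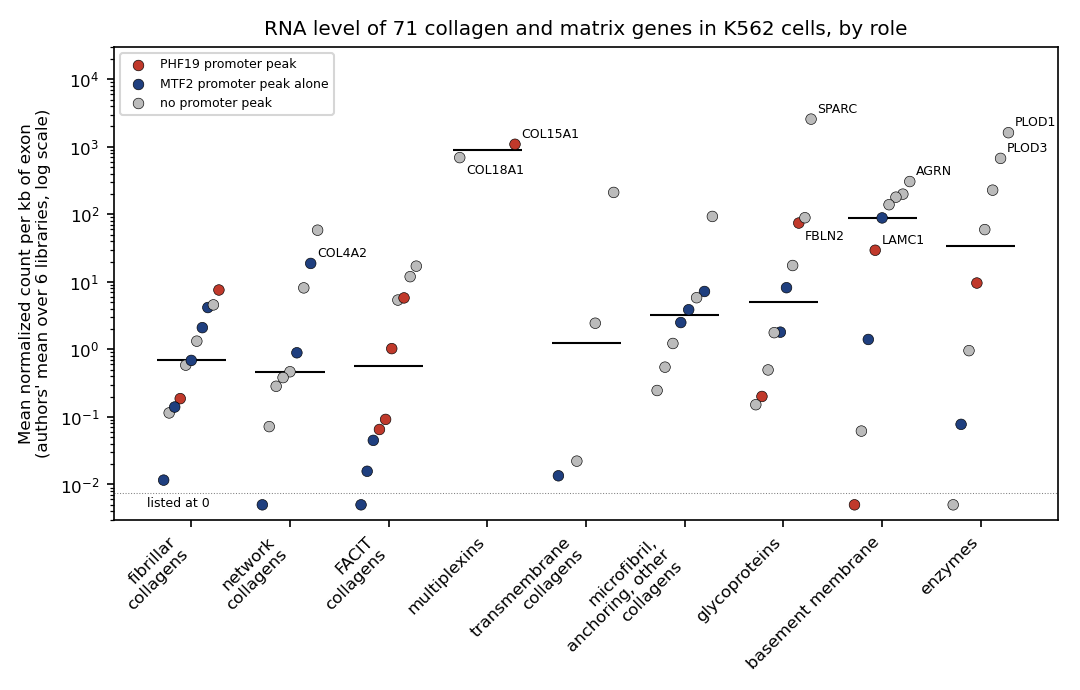
Mean normalized count per kb of exon (y axis, log scale, the authors' mean over 6 libraries with no error) for the 71 matrix genes by role, with the median of each role as a line and genes listed at 0 drawn under the dotted line. COL15A1 is the red point, a gene with a PHF19 promoter peak, among the 10 highest, while SPARC, PLOD1 and COL18A1 have no promoter peak.

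The classical fibrillar collagens were low. Of 11 fibrillar genes, 4 had a mean of at least 10 normalized counts and 0 reached 100, with COL1A1 the highest at 68.2. The network collagens COL4A5 and COL4A6, whose start sites are 1416 bp apart, had 58.2 and 8.14 per kb, and COL4A3 and COL4A4, 419 bp apart, had 0.284 and 0.382 per kb. Basement membrane genes had a median of 88.4 per kb and enzymes of 34.5, beside 0.687 for fibrillar, 0.467 for network and 0.559 for FACIT collagens. Markers were read as a check of the cells. The 12 K562 markers had means from 632 (EPOR) to 171752 (HBG2) normalized counts, the 7 fibroblast markers from 0 (LUM and PDGFRA) to 9.06, and the 5 endothelial markers from 0.182 to 29.0. Of 5 lymphoid markers, CD3D stood at 962 and the other 4 between 0 (MS4A1) and 43.2.

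PHF19 peaks and RNA levels were set beside each other by level class, as a description. Among the 15 matrix genes with a mean under 1 normalized count, 10 had an MTF2 promoter peak in sh2 (66.7%, beside 26.5% of coding genes in that class) and 3 a PHF19 promoter peak, beside 7.11% of coding genes. Among the 11 with a mean of at least 1000, 2 had an MTF2 promoter peak in sh2, COL15A1 and LAMA5 (18.2%, beside 3.05%), and COL15A1 had a PHF19 promoter peak (9.09%, beside 5.85%). Between them lay the classes of 1 to under 10, 10 to under 100 and 100 to under 1000. PHF19 promoter peaks were at 11.8%, 23.5% and 18.2% of their matrix genes, beside 14.3%, 15.8% and 8.26% of coding genes. For MTF2 in sh2 the shares were 35.3%, 52.9% and 27.3%, beside 33.5%, 29.9% and 10.7%. The median level per kb was 5.38 in the 39 genes with no promoter peak, 1.15 in the 20 with MTF2 and no PHF19, and 3.41 in the 12 with PHF19. In coding genes these medians were 76.8, 0.560 and 6.09 per kb. Of the 12 matrix genes with PHF19, COL16A1, COL1A1, FBLN2 and LOXL2 had their peaks far downstream of the canonical start site. Within the PHF19-marked genes the level per kb was 0 for NID1, 0.0652 for COL19A1, 0.0919 for COL16A1, 0.187 for COL2A1, 0.201 for FBLN5, 1.03 for COL9A1, 5.79 for COL9A3, 7.57 for COL1A1, 9.60 for LOXL2, 29.4 for LAMC1, 74.2 for FBLN2 and 1089 for COL15A1. PHF19 promoter peaks were thus present in every level class, from genes listed at or near 0 to COL15A1, with a mean of 7243 normalized counts. The peaks are those of shCT, while these means pool shCT with sh1 and sh2. The RNA level in shCT alone, where PHF19 was mapped, is unknown for each gene.

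CpG content is shown by 3 further promoters, the 250 bases before the start sites of COL18A1 and SPARC, which were highly expressed and had no promoter peak, and of COL17A1, the matrix gene with the lowest CpG ratio. They lie for COL18A1 at chr21:46824830-46825079 on the plus strand, for SPARC at chr5:151066477-151066726 on the minus strand, and for COL17A1, a transmembrane collagen of skin, at chr10:105845639-105845888 on the minus strand, with CG in capitals (GRCh37).
COL18A1: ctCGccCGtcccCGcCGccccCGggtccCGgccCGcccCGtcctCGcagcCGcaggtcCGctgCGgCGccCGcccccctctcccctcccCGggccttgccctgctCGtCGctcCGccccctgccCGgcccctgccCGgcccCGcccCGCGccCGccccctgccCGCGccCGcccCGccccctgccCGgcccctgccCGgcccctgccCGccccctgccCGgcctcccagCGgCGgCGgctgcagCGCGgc
SPARC: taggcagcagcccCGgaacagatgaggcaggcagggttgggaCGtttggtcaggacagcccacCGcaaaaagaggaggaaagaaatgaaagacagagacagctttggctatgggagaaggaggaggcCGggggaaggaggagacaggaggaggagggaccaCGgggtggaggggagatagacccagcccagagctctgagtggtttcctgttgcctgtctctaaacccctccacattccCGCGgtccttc
COL17A1: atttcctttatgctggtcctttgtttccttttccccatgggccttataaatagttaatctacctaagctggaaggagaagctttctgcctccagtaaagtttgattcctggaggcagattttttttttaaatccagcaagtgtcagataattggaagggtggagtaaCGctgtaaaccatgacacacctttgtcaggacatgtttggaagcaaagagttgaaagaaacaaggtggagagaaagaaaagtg

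COL18A1 held 37 CG dinucleotides there, about as many as COL15A1, and no list held a promoter peak at it. SPARC held 7 and COL17A1 held 1. Over all 71 genes the median CpG ratio of the 300 bases was 0.714, beside 0.782 in coding genes, and 54 genes (76.1%) held CGCG. Genes with a PHF19 promoter peak had a median of 0.810 (12 genes) and those without one 0.709 (59 genes), beside 0.829 and 0.776 in coding genes. These ratios are of the canonical start site, which a PHF19 peak covered at 4 of the 12 genes. At COL16A1, COL1A1, FBLN2 and LOXL2 the peaks lay far downstream, so the ratio is not of the DNA under them. A ratio under 0.5 was found in 16 of the matrix genes (22.5%, beside 27.2% of coding genes). Of those 16, COL1A1 and COL27A1 had an MTF2 peak over the start site in sh2, COL1A1 also in shCT, and none had PHF19 over it. Of the 5198 coding genes with such a ratio, 418 had MTF2 over it in sh2, 199 MTF2 in shCT and 78 PHF19. At those shares, counts this low in 16 genes do not set the matrix genes apart. Among the 16 is COL9A1 (0.174), whose PHF19 peak ended 949 bp upstream of these bases.

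**Figure D5:**
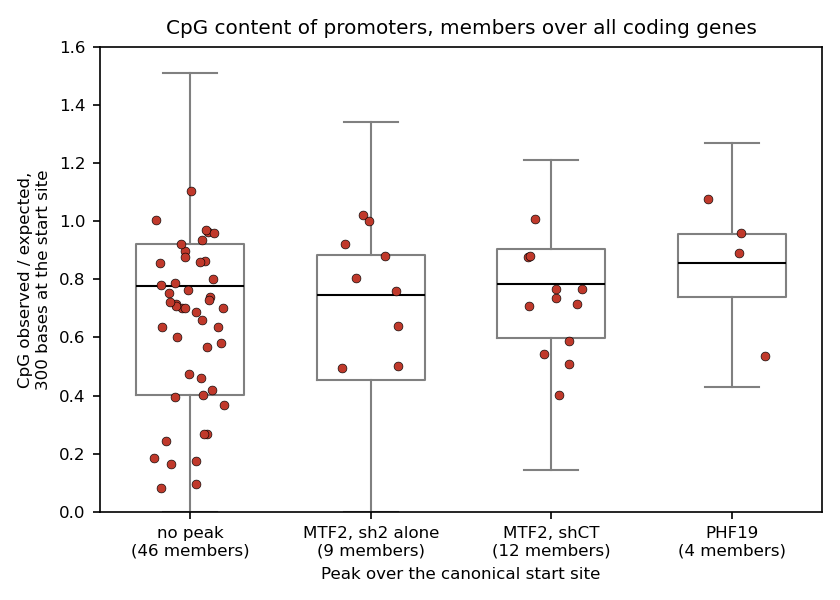
CpG observed to expected ratio of the 300 bases at the canonical start site (y axis) by the peak over that site, with boxes for all coding genes (median and quartiles, whiskers to 1.5 times the quartile range) and red points for the matrix genes, 46, 9, 12 and 4 from left to right. The 4 genes under PHF19 have ratios from 0.537 to 1.08, and the 46 without a peak reach down to 0.0820.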

How the data were processed

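K562 cells with shCT, sh1 or sh2 were grouped by the GEO labels. RNA reads were aligned by the authors to hg19 (TopHat, unique hits kept), counted over RefSeq exons and compared with DESeq2. Their deposited table holds a mean normalized count per gene over all 6 libraries, treated here as a score, and 5 columns of their comparison of PHF19 depletion with control (log2 fold change, standard error, statistic, p-value and adjusted p-value). These columns hold the study's own findings and were not used. The table gives no values per library, so no expression test was made, the depth of each library is unknown, and nothing is said of how RNA changed. ChIP reads were mapped by the authors with Bowtie to a joint human and fly genome (hg19 plus dm3), and MACS called peaks against a control. The deposited lists give each peak a position and a score, and no tags, so neither the tag filter nor the spike-in could be checked. Headings inside the PHF19 list and the MTF2 sh2 list name a hairpin that no sample label has, so the control used for PHF19 and the naming of the sh2 list are uncertain, and every MTF2 comparison of shCT with sh2 rests on the latter. The sources used here give no versions of the authors' tools.

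Of 27348 symbols, 24418 were placed on GRCh37, the assembly of hg19, by GENCODE release 44 (23366 directly and 1052 by a unique RefSeq synonym), 19084 of them protein-coding. No peak ran past a chromosome end (0). Coordinates are 1-based. Promoter peaks overlapped 2.5 kb on either side of any start site by at least 1 bp. Levels were divided by exon length. CpG ratios came from the genome sequence 250 bases before to 50 after the canonical start site. Overlap counting was tested on simulated data with known answers. Python 3.11.15, numpy 2.4.6, pandas 2.3.3 and matplotlib 3.10.9 were used.

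The members and lists were chosen with earlier results of these data known. Genes were named if they had a PHF19 promoter peak, an MTF2 promoter peak in only 1 of the lists, 1 of the 10 highest levels per kb, or a place in a head-to-head collagen IV pair, with FBLN2 and COL15A1 added from earlier results. Others named were chosen after their values were seen. Alternatives tried were other promoter windows, score thresholds, length measures and numbers of peaks. The sequence at 1 of the start sites under PHF19 is not reported here.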

Additional observations from a re-analysis of the deposited data

How the results depend on the processing

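Of 43 alternative values, 35 stayed within the limits set for a change, 8 moved and 0 reversed. For counts these limits were wide. A fall from 12 to 8 genes with a PHF19 promoter peak, by the canonical start site alone, stayed within them. So did 8 genes instead of 6 with MTF2 in sh2 alone at the median score, though few genes were shared. Of all these values only the median MTF2 difference could change sign, so the count of reversals says little. With the canonical start site alone, a choice added after seeing the data, the genes with an MTF2 promoter peak in sh2 and none in shCT were 10, against 6 with any start site. With peaks at or above the median score, 9 genes instead of 14 had a PHF19 peak in the target region. The median CpG ratio of PHF19-marked genes was then 0.879 instead of 0.810, and with 1 kb on each side it was 0.677. These ratios are of the canonical start site, whether or not the peak covered it. A minimum of 100 normalized counts left 22 genes instead of 39. The median level per kb was 2.65 with the length of the longest transcript and 17.5 over genes with a mean of at least 10, against 2.10. The median MTF2 difference was 2471 bases within 5 kb of the start site, against 2624 within 10 kb.

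No paired analysis was possible because the files hold no values per library for the RNA and 1 library per condition for the ChIP; for the same reason no library was left out in turn. Read depth behind peaks is unknown, and signal below the score of 50 was not seen.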
